A study of Mus musculus with 8 samples.

Results

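The genes described here are 8 genes of cholesterol metabolism, Srebf2, Hmgcs1, Idi1, Fdft1, Sqle, Insig1, Abca1 and Abcg1, chosen by their symbols from a count table of 24421 genes. The RNA came from neutrophils isolated out of the bone marrow of 8-week-old female C57BL/6 mice. The mice were WT or lacked exon 1 of Padi4, the gene of the citrullinating enzyme PAD4 (Padi4 KO), and no promoter or Cre restricting this deletion to neutrophils is named. Cells were left unstimulated or given R848, a TLR7 agonist, at 1 µg/ml for 6 h. Each of the 4 groups held 2 libraries. The labels place the unstimulated libraries at 0 h, but the methods place them at 6 h, so 6 h of culture may be part of each R848 response. The sources used here do not say that the 2 libraries of a group came from separate mice, and p-values then measure only the spread between these libraries, which may be technical. Between 562446 and 1177972 counts per library fell on genes, and a floor of 3 counts corresponds to 2.55 to 5.33 CPM, the number of counts after scaling each library to the same total. All 8 genes were among the 12254 genes tested, those seen with 1 count or more in 2 or more libraries.

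Cells make cholesterol from acetyl-CoA through mevalonate, farnesyl diphosphate, squalene and lanosterol. When sterols run low in the endoplasmic reticulum, the protein SCAP carries the transcription factor SREBP2 to the Golgi, where proteases release its active part. INSIG proteins hold SCAP back when sterols are plentiful. Cholesterol leaves phagocytes through the membrane transporters ABCA1 and ABCG1, whose genes are classical targets of the oxysterol receptors LXR. Hmgcs1 encodes the cytosolic HMG-CoA synthase, which acts before the mevalonate step. Idi1 encodes the isomerase that makes dimethylallyl diphosphate. Fdft1 encodes squalene synthase and Sqle the squalene epoxidase that follows it. Srebf2 encodes SREBP2, and Insig1 encodes a sterol-regulated INSIG protein.

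In GENCODE on the GRCm38 build, Srebf2 lay on chromosome 15 from 82147181 to 82205379 on the plus strand. Sqle lay on the same chromosome from 59315077 to 59331192, also on the plus strand. Hmgcs1, from 119690379 to 119708260, and Idi1, from 8885501 to 8892451, both lay on the plus strand of chromosome 13. Insig1 lay on chromosome 5 from 28071363 to 28078662 on the plus strand, and Abcg1 on chromosome 17 from 31057675 to 31117988, also on the plus strand. Fdft1, on chromosome 14 from 63145150 to 63179578, and Abca1, on chromosome 4 from 53030787 to 53159895, lay on the minus strand. The counts are sums over whole genes, without a split by exon or isoform. Fdft1 shared 774 bases with Ctsb, a cathepsin gene on the opposite strand. The strand setting of the counting is not given in the sources used here, so reads from these bases cannot be assigned to either gene. Hmgcs1 and Idi1 each overlapped a predicted gene on the opposite strand, Srebf2 held Mir33 and Gm49502 on its own strand, and Abcg1 held Gm25447. No annotated gene overlapped Sqle, Insig1 or Abca1.

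The promoter windows of RefSeq on GRCm38.p6 were read for the letters of sites known from sterol-regulated genes. Windows were matched by symbol for Srebf2, Hmgcs1, Idi1, Insig1 and Abca1, which is 5 of the 8 genes and too few for a statement about the whole set. The 4 windows below are shown because they belong to the regulator of the pathway, to an enzyme, to an INSIG gene and to an efflux gene. They end before the first annotated transcribed base. Each is written 5′ to 3′ on the strand of its gene. Capitals mark the sterol element TCACNCCAC, its shortened form TCACCCCA and the CCAAT box, which reads ATTGG on the opposite strand. The Srebf2 stretch is chr15:82147019-82147180, the Hmgcs1 stretch chr13:119690101-119690350, the Insig1 stretch chr5:28071162-28071362 and the Abca1 stretch chr4:53159989-53160145.
Srebf2: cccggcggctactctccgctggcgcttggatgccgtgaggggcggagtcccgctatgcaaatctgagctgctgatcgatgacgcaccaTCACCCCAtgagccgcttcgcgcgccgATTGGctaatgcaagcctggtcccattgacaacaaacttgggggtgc
Hmgcs1: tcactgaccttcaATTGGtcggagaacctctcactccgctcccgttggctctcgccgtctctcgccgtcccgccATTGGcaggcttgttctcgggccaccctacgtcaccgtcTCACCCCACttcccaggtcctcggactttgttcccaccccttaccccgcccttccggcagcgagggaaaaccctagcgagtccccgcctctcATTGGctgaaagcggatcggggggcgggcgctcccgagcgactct
Insig1: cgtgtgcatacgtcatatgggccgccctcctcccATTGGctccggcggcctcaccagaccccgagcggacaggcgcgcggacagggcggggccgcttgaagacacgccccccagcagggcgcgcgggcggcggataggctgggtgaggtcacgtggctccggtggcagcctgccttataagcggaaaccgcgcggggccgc
Abca1: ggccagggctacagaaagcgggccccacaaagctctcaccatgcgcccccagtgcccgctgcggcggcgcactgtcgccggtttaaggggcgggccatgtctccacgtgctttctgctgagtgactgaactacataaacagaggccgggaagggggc

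The full sterol element stood in the Hmgcs1 window, at -137 from the RefSeq start. The letters occurred in 1.24% of all 32851 windows on either strand. Its shortened form, which overlaps it in Hmgcs1, stood in Srebf2 at -162 and was found in 1.56% of all windows. This shortened form was chosen after the windows had been read. The CCAAT box, a frequent sequence found in 37.4% of all windows, occurred at 4 places in Hmgcs1, of which 3 lie in the stretch shown, at 2 in Idi1 and at 1 each in Srebf2 and Insig1, but not in Abca1. The GC box GGGCGG was present in all 5 windows, against 35.7% of all windows and 61.2% of the windows of tested genes. A direct repeat of AGGTCA with 4 bases between the copies, the form bound by LXR, occurred in 0.0152% of all windows and in none of these 5. These are matches of letters within the windows, which do not show whether a factor bound there.

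Before the results on the 8 genes, the Padi4 gene itself was read in each library. Unstimulated, its counts were 590 and 527 in the WT libraries, as against 40 and 54 in the KO libraries. With R848 they were 166 and 234 (WT) and 34 and 21 (KO). The neutrophil marker list, which includes S100a8, S100a9 and Camp, summed, in CPM of the library total, to between 151535 and 157754 without stimulation in WT and between 123780 and 125320 in Padi4 KO libraries. After R848 its sums were between 127335 and 141468 in WT and between 102636 and 103287 in Padi4 KO, so the sum was lower in KO libraries in both states without overlap. Of its 11 genes, 9 were lower and 2 higher in Padi4 KO without stimulation, and 8 were lower, 2 higher and 1 overlapping after R848. Csf3r and Cxcr2 were the higher ones in both states. Erythroid markers summed to between 25.4 and 88.9 CPM in WT and to between 835 and 1168 CPM in Padi4 KO libraries. The sum of monocyte and macrophage markers went from between 452 and 539 CPM to between 2895 and 2992 CPM with R848 in WT, and from between 1118 and 1156 to between 3052 and 3111 CPM in Padi4 KO. Most of this increase lay in Adgre1 and Csf1r, whereas Mrc1 and C1qa had between 0 and 3 counts in every library. Of the 10 genes of the list, as CPM of the library total, 4 were higher and 6 lower after R848 without overlap in WT, and 3 were higher and 7 lower in Padi4 KO. Cx3cr1 was among the higher ones, with 6 and 2 counts unstimulated and 21 and 15 after R848 in WT and 5 and 18 against 60 and 47 in Padi4 KO. F13a1 was among the lower ones, with 107 and 109 against 24 and 33 counts in WT and 327 and 517 against 113 and 118 in Padi4 KO, as were Ccr2 and Ly86.

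The R848 response was examined within each genotype. After R848, all 4 synthesis enzymes, both sterol regulators and Abca1 rose in WT and in Padi4 KO neutrophils, and Abcg1 fell in both. A response was called by edgeR's quasi-likelihood test at an adjusted p below 0.1 with a change of more than 2-fold, and by this rule 7 of the 8 genes rose and 1 fell in each genotype. Of all tested genes, 7.17% were called higher and 10.8% lower in WT, and 8.07% higher and 8.84% lower in Padi4 KO. On the log2 scale, the 8 genes had a median change of 3.06 (WT) and 2.36 (Padi4 KO), beside -0.17 and -0.03 over all tested genes. The 8 genes were chosen with earlier results of these data known, so their comparison with all genes carries no independent weight. For each of the 8 genes, the 4 unstimulated libraries did not overlap with the 4 libraries given R848. In bulk samples, fewer cells of a type and less RNA per cell cannot be told apart. The monocyte and macrophage marker sums were also higher with R848, mostly through Adgre1 and Csf1r and with genes of the list in both directions. The neutrophil sum was lower with R848 in both genotypes, as were the sums of stromal and endothelial markers (from between 267 and 354.2 to between 131 and 136 CPM in WT, and from between 634 and 802 to between 83.8 and 90.0 CPM in Padi4 KO) and of proliferating cells (from between 669 and 855 to between 457 and 486 CPM in WT, and from between 1179 and 1216 to between 951 and 952 CPM in Padi4 KO). Of the 10 stromal and endothelial genes, Vcam1 was higher with R848 in both genotypes. In WT 4 were lower and 5 overlapped, and in Padi4 KO 6 were lower and 3 overlapped. Erythroid sums were lower with R848 in WT and higher in Padi4 KO. The part of these markers in the responses was not tested.

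**Figure D1:**
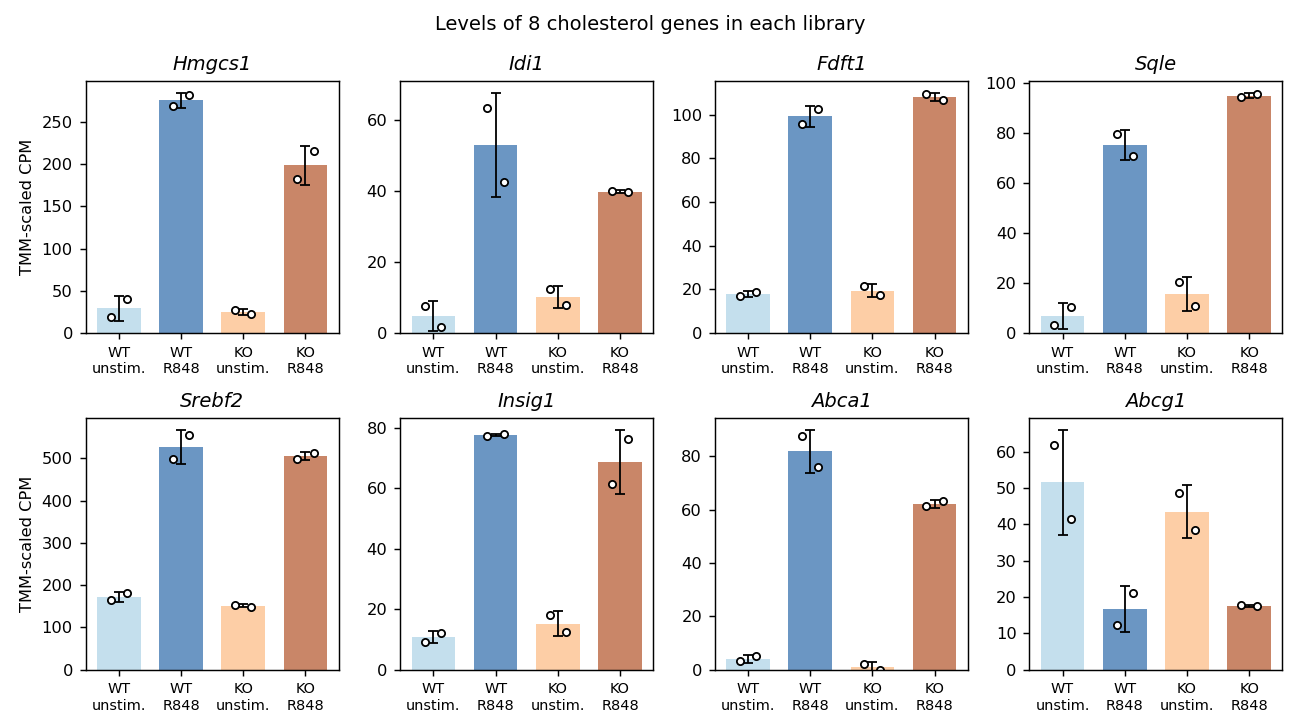
TMM-scaled CPM (vertical axes, from 0) of the 8 genes in WT and Padi4 KO (KO) neutrophils, unstimulated (unstim.) or after R848. Open circles are single libraries, and bars with whiskers are the mean ± SD of 2 libraries. The circles after R848 stand above all unstimulated circles in 7 genes and below them in Abcg1, which fell from 51.6 to 16.7 CPM in WT.

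Hmgcs1 had 18.6 and 39.7 CPM in unstimulated WT libraries and 269 and 282 CPM after R848, on the scale of edgeR's TMM factors. In Padi4 KO it had 27.1 and 22.5 CPM unstimulated and 182 and 215 CPM after R848. The unstimulated libraries of the genotypes overlapped, and both KO libraries given R848 stayed below both WT libraries. The log2 fold change was 3.26 (SE 0.21, adjusted p = 1.46e-52) in WT and 3.02 (SE 0.18, adjusted p = 5.83e-64) in Padi4 KO, which is 9.60-fold and 8.11-fold.

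Idi1 had 5 and 1 counts in unstimulated WT libraries, the fewest of the 4 enzyme genes. Its level was 7.73 and 1.73 CPM unstimulated and 63.2 and 42.5 CPM after R848 in WT. In Padi4 KO it was 12.4 and 7.98 CPM unstimulated and 40.0 and 39.5 CPM after R848. On this scale, KO libraries were higher than WT libraries without stimulation and lower after it, with no overlap in either state. As CPM of the library total, the libraries given R848 overlapped, at 50.8 and 35.9 in WT and 38.2 and 37.9 in Padi4 KO. The change was 3.37 on the log2 scale (SE 0.47, adjusted p = 2.04e-11) in WT and 2.01 (SE 0.32, adjusted p = 2.14e-09) in Padi4 KO.

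Fdft1, which acts where squalene is formed from farnesyl diphosphate, differed little between the genotypes on the TMM scale. There its unstimulated libraries overlapped, and after R848 both KO libraries were slightly above both WT libraries. As CPM of the library total, both KO libraries were above both WT libraries in each state. WT libraries had 17.0 and 19.0 CPM unstimulated and 95.8 and 103 CPM after R848. Padi4 KO libraries had 21.5 and 17.4 CPM unstimulated and 109 and 107 CPM after R848. On the log2 scale the change was 2.46 (SE 0.30, adjusted p = 1.84e-15) in WT and 2.496 (SE 0.21, adjusted p = 3.56e-31) in Padi4 KO.

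Sqle had 2 and 6 counts in unstimulated WT libraries, or 3.09 and 10.4 CPM. After R848 it had 79.5 and 70.8 CPM in WT. In Padi4 KO it had 20.4 and 10.9 CPM unstimulated and 94.2 and 95.6 CPM after R848. Both KO libraries exceeded both WT libraries in each state, the unstimulated ones by a small margin. The log2 fold change was 3.49 (SE 0.40, adjusted p = 6.95e-17) in WT and 2.69 (SE 0.23, adjusted p = 3.96e-30) in Padi4 KO.

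Srebf2 changed least among the 7 genes that rose, and it was measured with the most counts, from 105 to 561 per library. WT libraries had 164 and 181 CPM unstimulated and 499 and 556 CPM after R848. Padi4 KO libraries had 154 and 149 CPM unstimulated and 498 and 513 CPM after R848, the latter overlapping with WT. As CPM of the library total, both KO libraries were above both WT libraries in each state. The log2 fold change was 1.62 (SE 0.12, adjusted p = 6.75e-37) in WT and 1.74 (SE 0.10, adjusted p = 5.13e-61) in Padi4 KO, or 3.07-fold and 3.34-fold.

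Insig1 had 9.28 and 12.1 CPM in unstimulated WT libraries and 77.4 and 77.9 CPM after R848. Padi4 KO libraries had 18.1 and 12.3 CPM unstimulated and 61.3 and 76.3 CPM after R848. The KO values stood just above WT without stimulation and just below it with R848, where they overlapped as CPM of the library total (62.3 and 65.8 in WT, 58.6 and 73.2 in Padi4 KO). The log2 fold change was 2.86 (SE 0.36, adjusted p = 2.40e-14) in WT and 2.22 (SE 0.25, adjusted p = 7.34e-18) in Padi4 KO.

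Abca1 was nearly undetected without stimulation, with 2 and 3 counts in WT and 2 and 0 counts in Padi4 KO libraries, all at or under the floor of 3 counts. Libraries given R848 held 43 and 43 counts (WT), or 87.6 and 76.1 CPM, and 69 and 69 counts (Padi4 KO), or 61.3 and 63.4 CPM. Every library given R848 was above every unstimulated library. Summed over the libraries of a group, the ratio of R848 to unstimulated levels was 19.98 in WT, with an exact 95% binomial interval of 8.24 to 63.1. In Padi4 KO it was 70.5, with an interval of 19.2 to 588. These intervals cover counting error only and overlap. The fitted log2 fold changes, 4.27 (SE 0.44, adjusted p = 3.50e-21) in WT and 5.92 (SE 0.46, adjusted p = 1.23e-36) in Padi4 KO, depend on the prior count that edgeR adds.

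Abcg1, the partner transporter that passes cholesterol to larger lipoproteins, went the other way. WT libraries had 61.8 and 41.4 CPM unstimulated and 12.2 and 21.2 CPM after R848. Padi4 KO libraries had 48.6 and 38.5 CPM unstimulated and 17.8 and 17.5 CPM after R848. The genotypes overlapped in both states. The log2 fold change was -1.61 (SE 0.36, adjusted p = 6.74e-05) in WT and -1.26 (SE 0.27, adjusted p = 1.86e-05) in Padi4 KO.

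**Figure D2:**
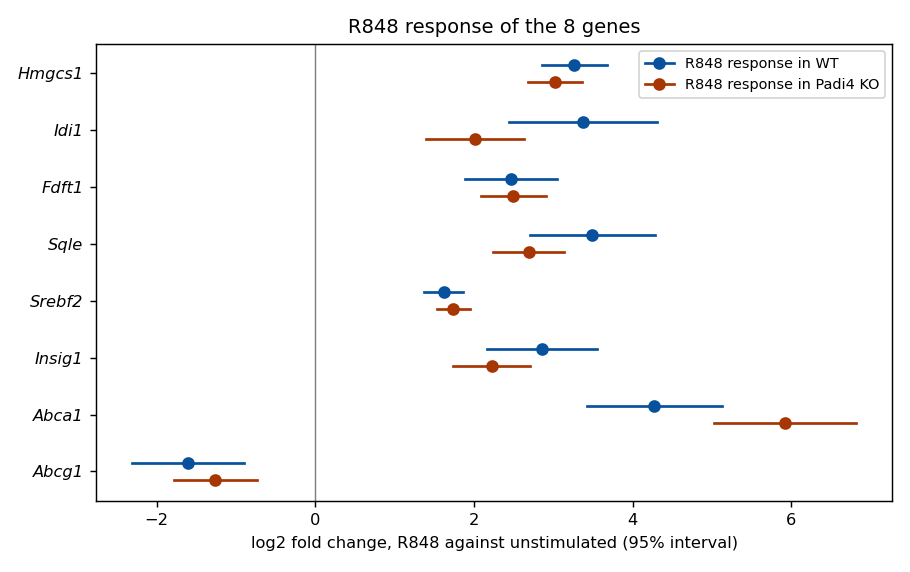
Log2 fold change after R848 (horizontal axis) of the 8 genes (rows) in WT and Padi4 KO neutrophils from edgeR. Points are estimates and lines are 95% intervals from the standard errors. The 7 genes from Hmgcs1 to Abca1 lie right of 0 and Abcg1 lies left of 0 in both genotypes, and the intervals of the genotypes overlap in each row.

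The calls of all 8 genes in both genotypes were retained under every alternative scaling, filter, tool and left-out library that was run. Single unstimulated libraries moved the sizes. Without the second unstimulated WT library, the log2 fold change in WT was 3.88 for Hmgcs1, 4.54 for Sqle and 2.73 for Idi1. Without the first, it was 2.84 for Sqle and 4.81 for Idi1. For Abca1 in Padi4 KO it was 8.71 without the first unstimulated KO library and 4.69 without the second.

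To compare the genes with each other, TMM-scaled CPM were divided by the exon length of each gene in kb. In unstimulated WT libraries, the level of Srebf2 was 24.0 ± 1.71 CPM per kb (SD, n = 2), the highest of the 8 genes. Abcg1 followed at 7.08 ± 1.98, Hmgcs1 at 6.34 ± 3.26, Fdft1 at 4.26 ± 0.332 and Insig1 at 3.45 ± 0.642 CPM per kb. Idi1 at 1.35 ± 1.21, Sqle at 1.21 ± 0.927 and Abca1 at 0.399 ± 0.142 CPM per kb were the lowest. Among neighbours in this order, the libraries of Abcg1 and Hmgcs1, of Hmgcs1 and Fdft1, and of Idi1 and Sqle overlapped. In unstimulated Padi4 KO libraries the order was Srebf2 at 21.1 ± 0.421, Abcg1 at 5.97 ± 0.984, Hmgcs1 at 5.40 ± 0.714, Insig1 at 4.92 ± 1.32, Fdft1 at 4.60 ± 0.680, Idi1 at 2.91 ± 0.899, Sqle at 2.82 ± 1.21 and Abca1 at 0.109 ± 0.154 CPM per kb (SD, n = 2). There the neighbours from Abcg1 to Fdft1 overlapped in turn, as did Idi1 and Sqle.

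After R848, the order in WT was Srebf2 at 73.4 ± 5.57, Hmgcs1 at 59.9 ± 1.92, Insig1 at 25.1 ± 0.104, Fdft1 at 23.5 ± 1.15, Idi1 at 15.1 ± 4.17, Sqle at 13.6 ± 1.10, Abca1 at 7.90 ± 0.785 and Abcg1 at 2.29 ± 0.874 CPM per kb. Abcg1 thus moved from the second place to the last. In Padi4 KO the order after R848 was Srebf2 at 70.4 ± 1.42, Hmgcs1 at 43.2 ± 5.07, Fdft1 at 25.5 ± 0.446, Insig1 at 22.2 ± 3.42, Sqle at 17.1 ± 0.179, Idi1 at 11.3 ± 0.0929, Abca1 at 6.02 ± 0.144 and Abcg1 at 2.41 ± 0.0297 CPM per kb. Of the neighbours in both orders after R848, the libraries of Idi1 and Sqle in WT overlapped, and those of the other pairs did not.

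The R848 response was then read in the other genes of cholesterol metabolism, taken from 6 lists of 59 genes in all, of which 56 were tested. Besides the 8 genes, 13 of 48 tested genes rose and 4 fell in WT, and 19 rose and 6 fell in Padi4 KO. By the same rule, 7.17% of all tested genes rose and 10.8% fell in WT, and 8.07% rose and 8.84% fell in Padi4 KO. The lists, like the 8 genes, were chosen with earlier results of these data known. All 20 pathway genes called higher in WT, the 7 above included, were also called higher in Padi4 KO, as were all 5 called lower. Of the 21 synthesis genes, 13 were called higher and 0 lower in WT, and 16 higher and 0 lower in Padi4 KO. Lbr, a sterol reductase gene named after its values were seen, changed by -0.77 (SE 0.10, adjusted p = 1.22e-12) in WT and -0.62 (SE 0.09, adjusted p = 8.82e-12) in Padi4 KO, which is less than 2-fold, and it was called lower in WT with library size alone (-1.08).

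In the list from acetyl-CoA to farnesyl diphosphate, 6 of 8 genes rose in WT and 7 of 8 in Padi4 KO, with medians of 2.60 and 1.74 on the log2 scale. Fdps, the farnesyl diphosphate synthase gene, rose by 2.75 (SE 0.26) in WT and 2.41 (SE 0.17) in Padi4 KO. Its WT value was 4.08 without the first and 2.12 without the second unstimulated WT library. Pmvk, a kinase of the mevalonate branch, rose by 2.66 (SE 0.38) in WT, or 3.31 without the second unstimulated WT library, and by 1.61 (SE 0.25) in Padi4 KO. Acat2, the cytosolic thiolase gene, rose by 1.87 (SE 0.77) in WT, where it had 4 counts in all without stimulation and 13 with R848. That is a ratio of 3.78 with a counting interval of 1.17 to 15.9. The Acat2 call was lost with library size alone (adjusted p = 0.116) and DESeq2 (0.243), and without the first unstimulated WT library (1.23, adjusted p = 0.381) or the first WT library given R848 (1.54, adjusted p = 0.314). Without the second unstimulated WT library its value was 2.88.

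In the list from squalene to cholesterol, 7 of 13 genes rose in WT and 9 of 13 in Padi4 KO, with medians of 1.19 and 1.65. Cyp51, the lanosterol demethylase gene, had 1 and 2 counts in unstimulated WT libraries and 75 and 68 after R848, a ratio of 55.4 with a counting interval of 18.6 to 272. In Padi4 KO it had 13 and 28 counts unstimulated and 137 and 145 after R848, and its log2 fold change was 2.81 (SE 0.21). Cyp51 overlaps Akap9 on the opposite strand. Hsd17b7 rose by 2.21 (SE 0.32) in WT, or 3.01 without the second unstimulated WT library, and by 1.95 (SE 0.26) in Padi4 KO. Msmo1, a sterol demethylation enzyme gene, rose by 1.57 (SE 0.19) in WT and 1.90 (SE 0.15) in Padi4 KO.

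Genes of sterol sensing and SREBP processing did not move together. Of 7 genes, Srebf2 and Insig1 rose and Scap fell in each genotype. Scap, the escort protein gene, had 22 and 21 counts in unstimulated WT libraries and 8 and 5 after R848, a log2 fold change of -1.50 (SE 0.43). This call in WT was lost with DESeq2 (-1.43, adjusted p = 0.136) and without the second WT library given R848 (-0.997, adjusted p = 0.189). In Padi4 KO it had 25 and 41 counts unstimulated and 11 and 3 after R848, a log2 fold change of -2.18 (SE 0.38), or -3.47 without the first KO library given R848. The median of the list was -0.44 in WT and -0.15 in Padi4 KO.

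In the list of uptake and lysosomal release, 3 of 11 tested genes rose and 1 fell in WT, and 5 rose and 1 fell in Padi4 KO. Lipa, the lysosomal acid lipase that frees cholesterol from esters, was at 47.9 and 51.8 CPM in unstimulated WT libraries and at 638 and 627 CPM after R848. Its log2 fold change was 3.66 (SE 0.16) in WT and 3.19 (SE 0.13) in Padi4 KO. Olr1, a receptor for oxidised lipoprotein, rose by 2.91 (SE 0.22) in WT and 3.05 (SE 0.22) in Padi4 KO. Msr1, a scavenger receptor gene, rose by 1.76 (SE 0.38) in Padi4 KO, or 2.47 without the second unstimulated KO library, while its value in WT was 1.11, which did not pass the test.

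The efflux and LXR list gave 1 gene called higher and 2 lower of 10 in WT, and 2 higher and 3 lower in Padi4 KO. Its medians were -0.21 and -0.10 on the log2 scale. The second gene called higher in Padi4 KO was Nr1h3, which encodes LXR alpha and is named after its values were seen. It had 1 count in all unstimulated and 19 after R848, a ratio of 19.4 with a counting interval of 3.09 to 807, and was not called by DESeq2 (adjusted p = 0.107). Abca7 (0.54, SE 0.09) and Nr1h2 (0.52, SE 0.15) also passed the adjusted p in Padi4 KO, with changes of less than 2-fold. Among esterification and transport genes, 1 rose and 1 fell of 7 tested in WT, and 1 rose and 2 fell in Padi4 KO. Nceh1, a cholesteryl ester hydrolase gene, fell by 3.39 (SE 0.42) in WT and by 2.83 (SE 0.31) in Padi4 KO on the log2 scale, from between 38 and 67 counts per unstimulated library to between 3 and 10.

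**Figure D3:**
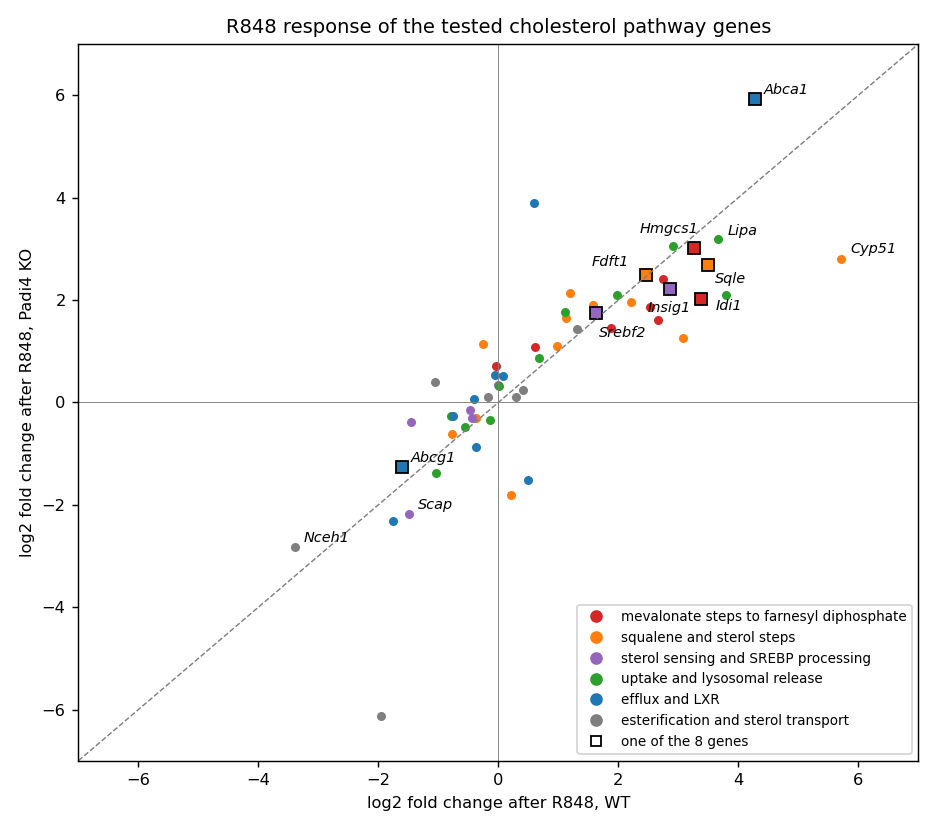
Log2 fold change after R848 in WT (horizontal axis) and Padi4 KO neutrophils (vertical axis) of the 56 tested genes of the 6 lists, coloured by list. Squares are the 8 genes, circles the others, and the dashed line marks equal responses. The 13 synthesis genes called higher in both genotypes lie in the upper right quadrant, where Cyp51 lies below the line at 5.71 in WT and 2.81 in Padi4 KO, and Abcg1, Scap and Nceh1 lie in the lower left quadrant.

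The next comparison asked whether the response itself differed between the genotypes. None of the 8 genes passed the test of the difference at an adjusted p below 0.1, a rule that called 3.45% of all tested genes higher and 1.26% lower in Padi4 KO. By unadjusted p below 0.05, 1 of the 8 genes passed with edgeR, Idi1, and 0 passed with DESeq2. Idi1 differed by -1.36 on the log2 scale (95% interval -2.68 to -0.05, adjusted p = 0.348). The interval was narrowest for Srebf2, at 0.12 (-0.21 to 0.45), and wide for Sqle, at -0.80 (-1.92 to 0.31), and for Insig1, at -0.63 (-1.62 to 0.36). Hmgcs1 differed by -0.24 (-0.91 to 0.42), Fdft1 by 0.04 (-0.80 to 0.87) and Abcg1 by 0.34 (-0.59 to 1.28). For Abca1 the difference of 1.65 (-0.42 to 3.71) rests on 7 unstimulated counts in all 4 libraries. The intervals of Srebf2, Hmgcs1 and Fdft1 leave out a 2-fold difference in both directions. Those of Idi1, Sqle and Insig1 include a 2-fold smaller response in Padi4 KO but not a 2-fold larger one, and that of Abca1 includes a 2-fold larger but not a 2-fold smaller one. For Abcg1, which fell, the interval includes a 2-fold weaker fall in Padi4 KO but not a 2-fold stronger one. Single unstimulated libraries moved some of these values. Without the first and the second unstimulated WT library in turn, the difference was -2.79 and -0.72 for Idi1 and -0.15 and -1.85 for Sqle, and without the second it was -0.86 for Hmgcs1. Without the first and the second unstimulated KO library, it was 4.43 and 0.42 for Abca1. Abcg1 was at -0.25 without the first WT library given R848. Among the other pathway genes, 1 was called higher, Abca7, and 2 lower, Cyp51 and Arl4c, by edgeR, and 0 by DESeq2. The median difference was -0.10 over the 8 genes and 0.19 over all tested genes.

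The genotypes were then compared without stimulation. None of the 8 genes passed an adjusted p below 0.1, by which 9.55% of all tested genes were called higher and 14.4% lower in Padi4 KO. By unadjusted p below 0.05, 1 of the 8 passed with edgeR, Sqle, and 0 with DESeq2. Sqle differed by 1.14 (SE 0.52, 95% interval 0.12 to 2.17, adjusted p = 0.114), and its adjusted p fell below 0.1 with relative log expression factors (0.0950), with library size alone (0.0372) and with the filterByExpr filter (0.0798). It also did so without the second unstimulated WT library (2.19, adjusted p = 0.0536) and without the second unstimulated KO library (1.63, adjusted p = 0.0385). Without the first unstimulated WT library the difference was 0.49. Idi1 differed by 0.97 (-0.25 to 2.19) and Insig1 by 0.46 (-0.45 to 1.36), both toward higher values in Padi4 KO. The value of Idi1 was 2.40 without the first and 0.33 without the second unstimulated WT library. Hmgcs1 differed by -0.23 (-0.85 to 0.39), or 0.39 without the second unstimulated WT library, Fdft1 by 0.08 (-0.66 to 0.82), Srebf2 by -0.19 (-0.46 to 0.08) and Abcg1 by -0.30 (-0.77 to 0.18). Abca1 had 5 counts in WT and 2 in Padi4 KO, at or under the floor in each library, so a difference was not detectable at this depth (adjusted p = 0.176). Without the first unstimulated KO library, where both KO counts lay, edgeR called Abca1 lower (adjusted p = 0.0423).

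Among the other 48 pathway genes, 4 were called higher and 5 lower in unstimulated Padi4 KO cells. Of all tested genes, 9.55% were called higher and 14.4% lower, and neither count is above its share. Cyp51 had 3 counts in all in WT and 41 in Padi4 KO, a ratio of 7.41 with a counting interval of 2.36 to 37.4. Lrp1, a large endocytic receptor gene, was higher by 1.60 (SE 0.22), and Scarb1, the receptor for high-density lipoprotein, by 1.04 (SE 0.24). The genes called lower were Sc5d (-0.95, SE 0.32), Olr1 (-1.04, SE 0.35), Abca7 (-0.40, SE 0.10), Nr1h2, which encodes LXR beta (-0.55, SE 0.17), and Soat1 (-0.38, SE 0.15). With DESeq2 and with library size alone, 0 of these 5 were called lower. The calls of Sc5d (-0.41), Nr1h2 (-0.46) and Soat1 (-0.28) were lost without the first unstimulated WT library, and that of Olr1 (-0.93) without the second. Without the second unstimulated KO library, Sc5d (-0.94), Olr1 (-1.02), Nr1h2 (-0.17) and Soat1 (-0.24) were not called. Erythroid markers were at between 72.9 and 88.9 CPM in WT and between 835 and 839 CPM in Padi4 KO, and stromal and endothelial markers at between 267 and 354.2 and between 634 and 802 CPM. Of the 10 stromal and endothelial genes, 4 were higher in Padi4 KO, among them Col1a1 and Col1a2, Vcam1 was lower and 5 overlapped. Markers of proliferating cells stood at between 669 and 855 CPM in WT and between 1179 and 1216 CPM in Padi4 KO. Monocyte and macrophage markers summed to between 452 and 539 CPM in WT and between 1118 and 1156 CPM in Padi4 KO, and the neutrophil sum was lower in the KO libraries, with Csf3r and Cxcr2 higher. The part of these cells in the genotype differences was not tested.

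After R848, 1 of the 8 genes differed between the genotypes. Hmgcs1 was lower in Padi4 KO by 0.47 on the log2 scale (-0.47, SE 0.13, adjusted p = 0.00229), at 199 ± 23.3 CPM against 275 ± 8.83 CPM in WT (SD, n = 2). The rule called 9.46% of all tested genes higher and 7.81% lower in Padi4 KO. The call for Hmgcs1 was lost with library size alone (-0.26, adjusted p = 0.167) and with DESeq2 (-0.57, adjusted p = 0.122). The other 7 genes did not pass. Abca1 differed by -0.39 (-0.79 to 0.02), Idi1 by -0.39 (-0.90 to 0.12) and Sqle by 0.34 (-0.04 to 0.72, adjusted p = 0.286). Sqle was called higher with library size alone (0.56, adjusted p = 0.0304). Insig1 differed by -0.18 (-0.58 to 0.23), Fdft1 by 0.12 (-0.23 to 0.46), Srebf2 by -0.07 (-0.25 to 0.12) and Abcg1 by 0.05 (-0.76 to 0.86). Without the first WT library given R848, Srebf2 was called lower (-0.28, adjusted p = 0.0673).

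**Figure D4:**
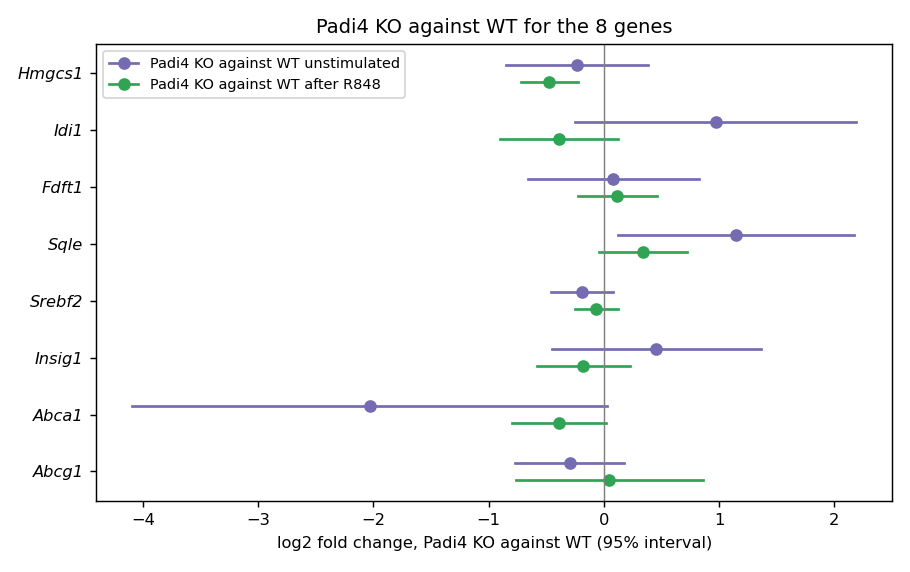
Log2 fold change of Padi4 KO against WT (horizontal axis) of the 8 genes (rows), unstimulated and after R848, from edgeR. Points are estimates and lines are 95% intervals from the standard errors. The line of Hmgcs1 after R848, from -0.72 to -0.23, lies wholly below 0, and the widest line is that of unstimulated Abca1, from -4.09 to 0.03.

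Among the other 48 pathway genes after R848, 7 were called higher and 4 lower in Padi4 KO, beside 9.46% and 7.81% of all tested genes. Lrp1 (1.25, SE 0.34) and Scarb1 (1.12, SE 0.30) were higher, as they were without stimulation. Lpcat3, a phospholipid-remodelling gene of the LXR programme, was higher by 0.79 (SE 0.27) and Stard4, a sterol carrier gene, by 0.72 (SE 0.29). Cd36 had 2 counts in WT and 22 in Padi4 KO, a ratio of 5.24 with a counting interval of 1.29 to 46.0, and Soat2 had 2 and 31 counts, a ratio of 7.39 (1.88 to 63.7). Olr1 was lower by 0.91 on the log2 scale (-0.91, SE 0.14), Lipa by a smaller amount (-0.31, SE 0.09) and Arl4c by more (-2.04, SE 0.53). With DESeq2, 0 of the other pathway genes were called higher, and with library size alone Lipa was not called (-0.09). Without the first WT library given R848, Scarb1 (0.72), Lpcat3 (0.54), Cd36 and Soat2 were not called, and without the second, Lrp1 (1.06), Lpcat3 (0.84), Stard4 (0.20) and Cd36 were not. Without the first KO library given R848, Scarb1 (0.56), Lpcat3 (0.50), Stard4 (0.46) and Cd36 were not called, and without the second, Stard4 (0.76) and Cd36 were not. Erythroid markers summed to between 25.4 and 50.8 CPM in WT and to between 1157 and 1168 CPM in Padi4 KO after R848. Markers of proliferating cells were at between 457 and 486 CPM in WT and between 951 and 952 in Padi4 KO, and stromal and endothelial markers at between 131 and 136 and between 83.8 and 90.0 CPM. Of the 10 stromal and endothelial genes, Vcam1 was among 2 lower in Padi4 KO, Col1a1 and Sparc were higher, and 6 overlapped. Monocyte and macrophage markers summed to between 2895 and 2992 CPM in WT and between 3052 and 3111 CPM in Padi4 KO, with 5 of 10 genes higher, among them Csf1r and Ccr2, and Adgre1 lower. The part of these markers in the differences, and that of the lower neutrophil sum in Padi4 KO, was not tested.

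Across the 8 libraries, log2 CPM of the 7 rising genes correlated with each other at Pearson r between 0.86 and 0.99 in 21 pairs, and Abcg1 correlated with them at between -0.94 and -0.86. These values describe 8 libraries that share 2 treatment states, so any gene that changed with R848 would correlate. Among 6911 genes with at least 10 counts on average, the 3 nearest in pattern to Srebf2 were Siglece, Hmox1 and Rhof (r 0.998, 0.997 and 0.997). For Hmgcs1 they were Tgif1, Ptges2 and Il10rb (0.996, 0.995 and 0.995), and for Fdft1 they were Qsox1, Sod2 and Ikbke (0.999, 0.997 and 0.997). Sqle was nearest to Bmf, Ghitm and Chchd2 (0.997, 0.989 and 0.987), and Idi1 to Lpin2, Adora2b and Ctnna1, each at 0.986. Insig1 was nearest to Bcl2l11, Esd and Tyk2 (0.997, 0.995 and 0.994). For Abca1 the genes were Cry1, Slc39a4 and Bin3 (0.998, 0.997 and 0.996), and for Abcg1 they were Gcnt2, Rarg and Ceacam10 (0.993, 0.984 and 0.983). None of these 24 genes belongs to the cholesterol lists.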

How the data were processed

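Neutrophils were isolated magnetically, and RNA was sequenced in 4 groups of 2 libraries. Per the labels, the authors used FastQC 0.11.7, cutadapt 1.16, STAR 2.5.3a on mm10 and HTSeq 0.6.1p1. The deposited values are raw read counts for each gene symbol, not normalized. The annotation and strand setting are not given in the sources used here. HTSeq's summary lines were left out, and 87.0% to 89.5% of each library's counts lay on genes. Of 24421 genes, 12254 were fitted by edgeR 4.0.16 (R 4.3.3, limma 3.58.1) with TMM factors, 1 mean for each group and a robust quasi-likelihood fit of all 8 libraries. Adjusted p-values are Benjamini-Hochberg values over all genes tested. Responses were called below 0.1 with more than a 2-fold change, other contrasts below 0.1. An SE is the size of the log2 change divided by the square root of F, and 95% intervals use the normal quantile. Groups of 2 allow no exact test that reaches 0.05, so each p rests on spread shared across genes. Marker sums use library totals, and levels use TMM factors. Duplicates differed by little more than counting noise in unstimulated WT, unstimulated Padi4 KO and Padi4 KO given R848. There chi-square over degrees of freedom was 1.13, 1.05 and 1.16, and in WT given R848 it was 1.67. The spread beyond counting noise that edgeR estimated over all genes was small, a coefficient of variation of 4.68%.

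The members and lists were chosen with earlier results of these data known. Named genes were the 8 members, the list genes with an adjusted p below 0.1 (at most 12 in a comparison, those with the largest change and at least 10 counts on average where more passed), and the 3 genes most correlated with each member. A gene named in one comparison may be given its value in the paired one. Some single genes of the lists are counted but not reported here. Alternatives were other scaling (relative log expression factors or the library size alone), filterByExpr, no filter beyond 1 count, DESeq2 1.42.0, a replicate block, a response threshold of 0.05, library-total CPM, each library left out in turn and, added after seeing the data, each genotype fitted alone and the overlap of genotypes in library-total CPM. The code was tested on simulated data. Figures were drawn with Python 3.11.15 and matplotlib 3.10.9.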

Additional observations from a re-analysis of the deposited data

Results flagged for a closer look

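Groups of 2 libraries were too small to test for an outlying library. The R848 response of 3 other pathway genes differed between the genotypes by edgeR's test of the difference. Cyp51 responded less in Padi4 KO, by -2.90 on the log2 scale (SE 0.66, adjusted p = 0.00119), with 3 counts in all in unstimulated WT cells; the difference ran from -3.52 to -2.43 when single libraries were left out and was not called by DESeq2 (-3.12, adjusted p = 0.127). Abca7 responded more, by 0.59 (SE 0.14, adjusted p = 0.00235), and was not called by DESeq2 (0.43) or without any of the 4 R848 libraries in turn. Arl4c, with between 5 and 24 counts per library, responded less, by -2.02 (SE 0.68, adjusted p = 0.0747), and was not called by DESeq2 or in 6 of the 8 fits that left out a library.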

How the results depend on the processing

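All 88 member results under alternatives kept direction and call in each R848 response, each genotype fitted alone (chosen after seeing the data) included. Library size alone shifted the median of all genes by -0.30 (WT response), -0.38 (Padi4 KO response), 0.25 (genotypes unstimulated) and 0.21 (genotypes after R848). It gave 2106 genes lower in the WT response and 624 higher and 2072 lower in the KO response, 255 higher in the difference, 1901 higher and 561 lower unstimulated, and 1870 higher and 417 lower after R848. DESeq2 gave 641 lower (WT), 550 lower (KO), 16 higher and 63 lower (difference), 409 and 506 (unstimulated), and 343 and 555 (after R848). Relative log expression factors gave 160 higher and 233 lower in the difference. Of the 8 genes, 1 was higher unstimulated with relative log expression factors, library size alone or filterByExpr, 1 was higher after R848 with library size alone, and 0 were lower after R848 with library size alone or DESeq2. Of the other pathway genes, library size alone called 8 lower in WT, 12 higher and 0 lower unstimulated, and 14 higher and 2 lower after R848. DESeq2 called 1 lower in WT, 0 higher and 0 lower in the difference, 0 lower unstimulated and 0 higher after R848, and relative log expression factors 7 lower after R848. Leaving out single libraries gave 51 to 293 genes higher and 98 to 350 lower in the difference, 778 to 1004 higher and 1166 to 1412 lower unstimulated, and 648 to 785 higher after R848. For the 8 genes it gave 0 to 1 higher and 0 to 1 lower unstimulated and 1 to 2 lower after R848. For the other pathway genes it gave 2 to 4 lower in WT, 0 to 1 higher and 1 to 4 lower in the difference, 1 to 5 lower unstimulated and 3 to 5 higher after R848. Member values that were not called changed sign as follows. In the difference, Srebf2 was -0.034 with relative log expression factors and -0.033 with DESeq2, and Fdft1 was -0.12 and -0.13 with these and -0.037 with library size alone. Leaving out libraries gave -0.23 to 0.20 for Srebf2, -0.86 to 0.23 for Hmgcs1, -0.29 to 0.15 for Fdft1 and -0.25 to 0.59 for Abcg1. Unstimulated, library size alone gave 0.10 for Srebf2 and 0.056 for Hmgcs1, and leaving out libraries gave -0.70 to 0.39 for Hmgcs1, -0.028 to 0.27 for Fdft1 and -0.54 to 0.037 for Abcg1. After R848, library size alone gave 0.15 for Srebf2 and 0.036 for Insig1, and Abcg1 was -0.052 with relative log expression factors and -0.045 with DESeq2; leaving out libraries gave -0.071 to 0.090 for Fdft1 and -0.41 to 0.44 for Abcg1. Apart from the shifts given, the cause was not tested. Replicate numbers did not pair the libraries (correlations from -0.020 to 0.020), and the replicate block gave 419 genes higher and 156 lower in the difference and the same counts for the 8 genes in all comparisons. A left-out library leaves a group with 1, whose spread is assumed to be like that of the others. Unstimulated levels of Abca1, Sqle and Idi1 are limited by counts of 0 to 18 per library.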
